A study of Mus musculus with 8 samples.

Results

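Carboxylesterases of the Ces1, Ces2 and Ces3 subfamilies were followed in mouse liver, as 10 genes chosen by symbol (Ces1c, Ces1d, Ces1e, Ces1f, Ces1g, Ces2a, Ces2c, Ces2e, Ces3a and Ces3b) out of 13696 distinct symbols in the deposited table. All 10 were present, 5 of subfamily 1, 3 of subfamily 2 and 2 of subfamily 3. They were listed with earlier results of the same 8 libraries known, so their levels and calls describe these libraries and support nothing beyond them. The study measured bulk liver RNA from mice with loxP-flanked Bicd2, the gene of an adaptor that joins dynein to cargo. The Alb-Cre group (genotype Alb-Cre Bicd2fl/fl, 4 libraries) also carried Cre recombinase under the albumin promoter, which is active in hepatocytes, and the Alb-WT group (Alb-WT Bicd2fl/fl, 4 libraries) served as its control. Mice of both groups were given the S-100 model of autoimmune hepatitis (AIH), that is, 2.5 mg of S-100, a soluble liver extract, in complete Freund's adjuvant each week for 3 weeks. Livers were collected 2 weeks after the last dose. No liver outside this model was analysed here, the labels state no strain, sex or age, and no label says that libraries came from separate animals, so p-values measure a spread between libraries that may be technical.

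Carboxylesterases are serine hydrolases, most of them held in the lumen of the endoplasmic reticulum, that cleave ester bonds in drugs, in triacylglycerol and in other lipids. The mouse genome carries many more copies than the human genome, arranged in tandem on chromosome 8, and the liver is among their main sites of expression. Several hydrolyse stored triacylglycerol on the way to very-low-density lipoprotein (VLDL), and several are known targets of the xenobiotic receptors CAR and PXR.

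Levels are FPKM, fragments scaled to gene length and library total, and being per length can be set roughly side by side between genes. For the family genes this length equalled that of all annotated exons merged, which can exceed the length of the transcript made. Whole fragments recovered from the FPKM steps came to 32524901 to 38893714 per library, and a member had 272 to 84852 of them in a library. Bicd2, the targeted gene, was at 0.705, 0.568, 0.509 and 0.732 FPKM in Alb-Cre replicates 1 to 4, against 2.46, 3.02, 2.80 and 3.11 FPKM in Alb-WT replicates 1 to 4, with no overlap. Of 11 hepatocyte markers 10 were analysed, and 1 of these rose and 0 fell (limma, with 2 lower at an unadjusted p under 0.05 and 2 called lower by limma-voom). Without Alb-Cre replicate 4, described next, 4 rose and 4 fell, and without any single other library none was called. Their summed level was 44455 to 45288.5 FPKM in Alb-WT, 45489.5 to 47212.4 FPKM in Alb-Cre replicates 1 to 3 and 40701.6 FPKM in replicate 4. Alb made up the largest part, at 23744 to 24419 FPKM, 26354 to 27571 FPKM and 19621 FPKM in the same order. Apoa1 was lower in all Alb-Cre libraries, at 7389 to 7948 FPKM, 6021.5 to 6961 FPKM and 5558 FPKM. The sum therefore does not speak for each marker. Alb-Cre replicate 4 stood apart from its group. Across genes its log2 values correlated at 0.958 to 0.96 with the other Alb-Cre libraries and at 0.974 to 0.977 with the Alb-WT libraries, while correlations among Alb-Cre replicates 1 to 3 were 0.995 to 0.996. In squared units of counting noise, averaged over genes, replicate 4 lay 357 to 385 from Alb-Cre replicates 1 to 3 and 203 to 216 from Alb-WT. Alb-Cre replicates 1 to 3 lay 190 to 208 from Alb-WT, so replicate 4 was not nearer to Alb-WT than they were by this measure. Calls and fold changes are therefore given with and without Alb-Cre replicate 4.

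Close paralogs can share sequencing reads. The share of each member's transcript sequence that cannot be told from another gene was measured as the percent of its 100-base windows found unchanged in transcripts of another gene (GENCODE M21). It was 13.6% for Ces2c, whose copies lie in Ces2d-ps, Gm6831 and Gm8798, and 8.13% for Ces2a, whose copy lies in Gm7208. Ces3a shared 6.88% and Ces3b 7.04% of their windows with each other, and Ces1c shared 1.03% with Ces1b, a paralog outside the list of 10. For Ces1d, Ces1e, Ces1f, Ces1g and Ces2e no window was shared. Coding sequences were 95.3% identical between Ces3a and Ces3b, 88.7% between Ces1c and Ces1b, 85.2% between Ces2c and Ces2g, and 82.4% between Ces2a and Ces2c. The longest unbroken stretches that these pairs share are shown because reads inside them cannot be assigned, 194 bases from position 514 of both coding sequences for Ces3a and Ces3b and 118 bases from position 1568 of Ces1b and 1529 of Ces1c.
Ces3a and Ces3b, coding stretch in common: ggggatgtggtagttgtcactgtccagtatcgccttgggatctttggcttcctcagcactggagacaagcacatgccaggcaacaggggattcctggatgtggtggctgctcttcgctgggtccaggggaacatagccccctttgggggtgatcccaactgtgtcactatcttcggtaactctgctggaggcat
Ces1b and Ces1c, coding stretch in common: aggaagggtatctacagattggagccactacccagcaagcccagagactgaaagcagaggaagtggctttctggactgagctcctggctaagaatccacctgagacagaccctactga
How the authors' counting treated such reads was not given in the sources used here, so the levels of Ces2a, Ces2c, Ces3a, Ces3b and Ces1c are uncertain to that extent.

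RefSeq promoter sequences (GRCm38.p6) were matched for 7 of the 10 members and, with the paralogs Ces1b, Ces2g and Ces4a, for 10 of 13 family genes in the table. Those of Ces1d, Ces1f and Ces3a were not matched. The 250 bases before the start are shown for the Ces2 genes because this subfamily holds the genes with the clearest rise, Ces2c and Ces2e. Each reads 5′ to 3′ on the plus strand, and capitals mark words of at least 8 bases that 3 of the 4 promoters share.
Ces2a, chr8:104733753-104734002: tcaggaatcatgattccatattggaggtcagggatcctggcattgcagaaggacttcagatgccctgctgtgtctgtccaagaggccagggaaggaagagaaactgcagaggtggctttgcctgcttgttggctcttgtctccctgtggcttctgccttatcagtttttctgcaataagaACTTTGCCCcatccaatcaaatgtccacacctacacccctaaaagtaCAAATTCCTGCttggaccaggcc
Ces2c, chr8:104846818-104847067: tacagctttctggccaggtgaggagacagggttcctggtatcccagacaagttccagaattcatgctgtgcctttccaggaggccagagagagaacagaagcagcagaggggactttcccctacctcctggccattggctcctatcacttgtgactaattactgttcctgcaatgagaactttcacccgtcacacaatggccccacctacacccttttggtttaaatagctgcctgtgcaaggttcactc
Ces2e, chr8:104926010-104926259: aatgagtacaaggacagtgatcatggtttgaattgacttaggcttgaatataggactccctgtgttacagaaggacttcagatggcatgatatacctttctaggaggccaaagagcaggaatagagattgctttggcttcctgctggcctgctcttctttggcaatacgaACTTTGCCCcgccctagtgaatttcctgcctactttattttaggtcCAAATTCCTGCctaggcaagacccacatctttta
Ces2g, chr8:104961468-104961717: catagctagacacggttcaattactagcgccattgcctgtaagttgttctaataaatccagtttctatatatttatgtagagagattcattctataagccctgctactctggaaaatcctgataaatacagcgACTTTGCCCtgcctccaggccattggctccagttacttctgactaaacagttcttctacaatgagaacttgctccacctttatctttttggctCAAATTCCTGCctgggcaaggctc
The words ACTTTGCCC and CAAATTCCTGC each stood in Ces2a, Ces2e and Ces2g and not in Ces2c. On either strand the first was found in 73 of 32851 promoter windows of this length (0.222%) and the second in 8 (0.0244%). The words were picked because these promoters share them. Over the full 250 bases Ces2a was more alike to Ces2c (64.6% identity) than to Ces2e (53.2%).

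The promoters of Ces1b and Ces1c are shown because this pair of close copies is lower in Alb-Cre livers than in Alb-WT livers, unlike the rest of subfamily 1 in Alb-Cre replicates 1 to 3. They lie on the minus strand, were 76.2% identical when aligned, and capitals mark the 39 bases of each that differ from or are missing in the other.
Ces1b, chr8:93079941-93080190: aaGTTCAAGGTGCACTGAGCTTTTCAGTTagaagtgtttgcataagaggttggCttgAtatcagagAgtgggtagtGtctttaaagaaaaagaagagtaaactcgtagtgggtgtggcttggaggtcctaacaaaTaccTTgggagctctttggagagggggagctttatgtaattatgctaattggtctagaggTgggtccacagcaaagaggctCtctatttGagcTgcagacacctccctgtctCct
Ces1c, chr8:93131284-93131533: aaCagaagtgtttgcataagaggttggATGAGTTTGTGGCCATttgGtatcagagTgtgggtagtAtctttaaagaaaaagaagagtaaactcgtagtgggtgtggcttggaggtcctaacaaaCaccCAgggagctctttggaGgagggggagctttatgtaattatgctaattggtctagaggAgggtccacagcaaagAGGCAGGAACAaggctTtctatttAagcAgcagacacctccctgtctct
Of the motifs searched on both strands, AGGTCA, a core word of nuclear receptor sites, stood in the windows of Ces2a and Ces4a (14% of all windows hold it), and its variant AGTTCA in that of Ces1b (11.8% of windows). TTCNNNGAA, the core of a STAT site, stood in none of the family's windows (7.0% of all). GTTAAT, part of the HNF1 site, stood in that of Ces3b (6.4%), and TATAAA in those of Ces1g and Ces3b (12.4%). A match describes the letters only, and a window without a match says nothing of the factor.

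Of the 10 members, 3 were called higher in Alb-Cre livers (Ces1g, Ces2c and Ces2e), 1 was called lower (Ces1c) and 6 were not called (limma, Benjamini-Hochberg adjusted p under 0.05 over 11077 rows tested). All 10 passed the filter of a mean of 0.5 FPKM, and also in the Alb-WT libraries alone. The background of all rows tested was 8.48% called higher and 23.3% called lower (31.8% in all), and nothing is read from the members' count against it because the members were listed with this contrast known. The median log2 fold change, on the log2(FPKM + 1) scale throughout, was 0.19 over the members and -0.13 over all rows. Without Alb-Cre replicate 4, 9 members were called higher and Ces1c alone lower, against 15.2% and 46.1% of all rows (61.3% in all), and the medians were 0.50 and -0.16. Without any single other library 2 were called higher (Ces2c and Ces2e) and none lower.

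Most members split the Alb-Cre group. For 6 of the 10 members (Ces1d, Ces1e, Ces1f, Ces2a, Ces3a and Ces3b) Alb-Cre replicates 1 to 3 were all above, and replicate 4 was below, every Alb-WT library, as were 3.11% of all rows tested. Ces2c and Ces2e were above every Alb-WT library in all 4 Alb-Cre libraries (9.27% of all rows), Ces1c was below in all 4 (21.4%, and 30.6% for no overlap in either direction), and Ces1g was above in replicates 1 to 3 and within the Alb-WT range in replicate 4. Alb-Cre replicate 4 was the lowest library of its group for 9 of 10 members, Ces2c being the other. The share of all rows with replicate 4 lowest was not counted, so this is not read as particular to the members. No member had replicates 1 to 3 below and replicate 4 above every Alb-WT library, a pattern of 10.2% of all rows.

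**Figure D1:**
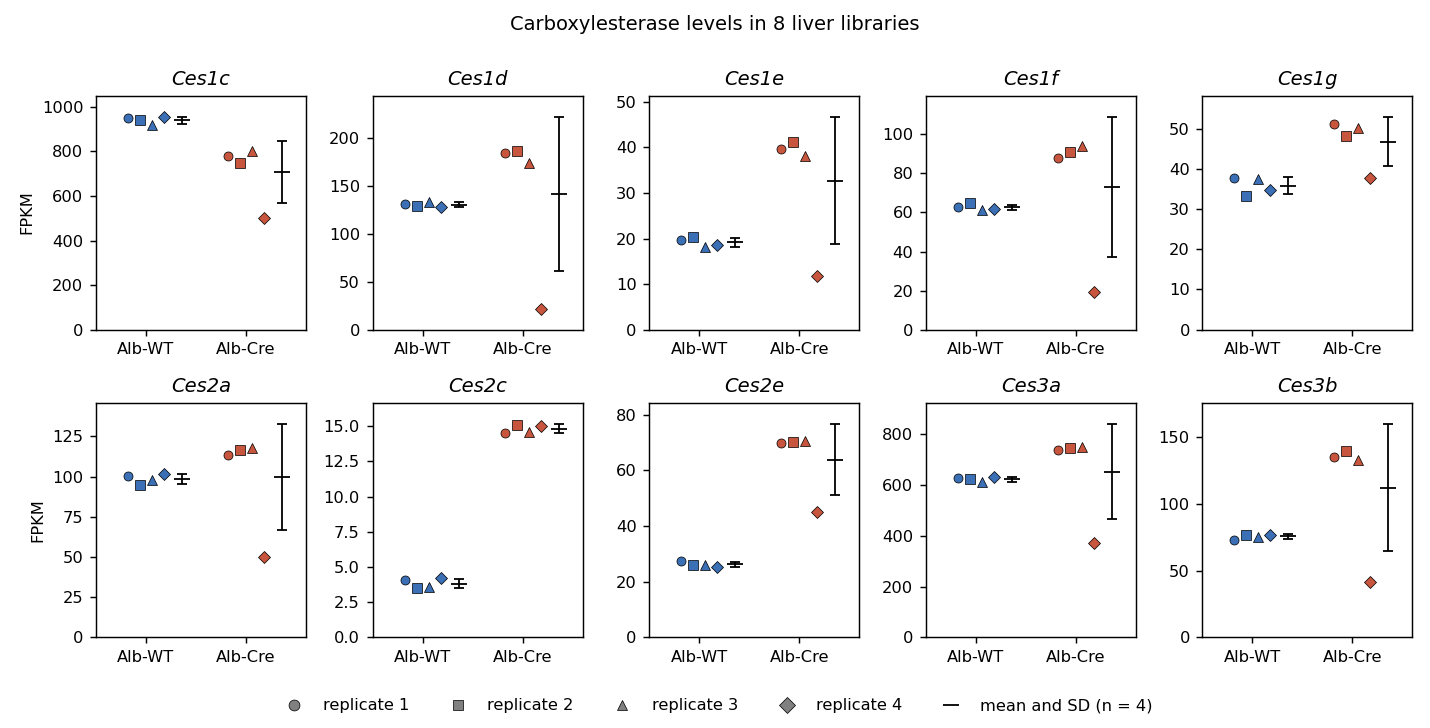
FPKM of the 10 carboxylesterases (y axes from 0, one panel a gene) in the 4 Alb-WT (blue) and 4 Alb-Cre (red) libraries, with marker shapes for replicate numbers and a black bar for the mean and SD. Alb-Cre replicate 4 (red diamond) lies below all Alb-WT libraries in 7 panels, whereas for Ces2c it lies at 15.0 FPKM among the other Alb-Cre libraries.

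In subfamily 1, the most abundant member was Ces1c, which encodes an esterase that mouse liver secretes into plasma. Its level was 778, 749, 800 and 501 FPKM in Alb-Cre replicates 1 to 4 and 948, 939, 918 and 955 FPKM in Alb-WT replicates 1 to 4. All Alb-Cre libraries were below all Alb-WT libraries, with means of 707 ± 139 and 940 ± 15.9 FPKM (SD, n = 4 each). The log2 fold change was -0.43 (SE 0.146, limma adjusted p = 0.049), and -0.28 (adjusted p = 0.000172) without Alb-Cre replicate 4. The call is at the threshold, since leaving out any single library other than Alb-Cre replicate 4 gave adjusted p-values of 0.0606 to 0.107.

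Ces1d, also named triacylglycerol hydrolase, mobilises stored lipid for VLDL assembly. It was at 185, 187, 174 and 21.3 FPKM in Alb-Cre and at 132, 129, 133 and 128 FPKM in Alb-WT. Replicates 1 to 3 were 1.39 times the Alb-WT mean and replicate 4 was 6.12-fold below it, the widest gap of replicate 4 among the members. Its log2 fold change of -0.28 (SE 0.625) was smaller than its error, and without replicate 4 it was 0.48 (SE 0.0428, limma adjusted p = 5.83e-06).

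Ces1f, another triacylglycerol hydrolase of liver, had the same shape, at 88.0, 90.8, 94.2 and 19.5 FPKM in Alb-Cre and at 62.7, 64.6, 61.4 and 61.6 FPKM in Alb-WT. The first 3 Alb-Cre libraries were 1.45 times the Alb-WT mean, and replicate 4 was 3.21-fold below it. The group means, 73.1 ± 35.8 and 62.6 ± 1.48 FPKM, differed by less than the spread between Alb-Cre libraries. On the log2 scale the difference was -0.01 (SE 0.448), and 0.53 (SE 0.0439) without replicate 4.

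Ces1e encodes egasyn, which holds beta-glucuronidase in the endoplasmic reticulum. It was at 39.6, 41.2, 38.2 and 11.9 FPKM in Alb-Cre and at 19.6, 20.3, 18.1 and 18.6 FPKM in Alb-WT. Replicates 1 to 3 were 2.07 times the Alb-WT mean and replicate 4 was 0.619 times that mean. With all libraries the log2 fold change was 0.60 (SE 0.346, limma adjusted p = 0.202), and 1.02 (adjusted p = 1.35e-07) without replicate 4.

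Ces1g, an esterase linked to hepatic lipid handling, was at 51.1, 48.2, 50.2 and 37.7 FPKM in Alb-Cre and at 37.8, 33.4, 37.4 and 34.7 FPKM in Alb-WT, so that the groups overlapped at replicate 4. The means were 46.8 ± 6.17 and 35.8 ± 2.13 FPKM, with a log2 fold change of 0.37 (SE 0.101, limma adjusted p = 0.0265), and 0.47 (adjusted p = 4.39e-05) without replicate 4. This call was lost, at adjusted p-values of 0.0542 to 0.0758, when any single library other than Alb-Cre replicate 4 was left out.

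Ces1b, the close copy of Ces1c, is not on the list of 10 and was at 29.4, 29.4, 30.2 and 37.7 FPKM in Alb-Cre and at 62.9, 61.2, 61.0 and 61.0 FPKM in Alb-WT. It fell in Alb-Cre livers (log2 fold change -0.94, SE 0.0859, limma adjusted p = 0.000278; -1.03 without replicate 4), and its call held in each of 16 alternatives. Replicate 4 was here the highest Alb-Cre library, where it was the lowest for Ces1c. The ratio of Ces1c to Ces1b was 15.1 to 15.7 in Alb-WT, 25.5 to 26.5 in Alb-Cre replicates 1 to 3, but 13.3 in replicate 4.

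In subfamily 2, Ces2c showed the highest ratio between groups of all 10 members. The gene encodes a hydrolase of triacylglycerol, diacylglycerol and drug esters. Its level was 14.5, 15.1, 14.6 and 15.0 FPKM in Alb-Cre and 4.06, 3.48, 3.56 and 4.18 FPKM in Alb-WT. The means of 14.8 ± 0.317 and 3.82 ± 0.353 FPKM stood in a ratio of 3.88, many times the spread of either group, and replicate 4 did not depart. This was a log2 fold change of 1.72 (SE 0.0684, limma adjusted p = 7.94e-06), and 1.71 without replicate 4.

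Ces2e, found in both liver and intestine, was at 69.8, 70.1, 70.6 and 44.9 FPKM in Alb-Cre and at 27.4, 26.1, 26.1 and 25.1 FPKM in Alb-WT. The ratio of means was 2.44 (63.8 ± 12.6 over 26.2 ± 0.959 FPKM), with replicate 4 at 1.72 and the other Alb-Cre libraries at 2.68 times the Alb-WT mean. Its log2 fold change was 1.23 (SE 0.141, limma adjusted p = 0.000778), and 1.39 (adjusted p = 4.39e-09) without replicate 4. The calls of Ces2c and Ces2e held in each of 16 alternatives.

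Ces2a, the most abundant Ces2 gene in Alb-WT livers, moved much less. It was at 113, 116, 118 and 50.1 FPKM in Alb-Cre and at 100.4, 94.5, 98.1 and 101.5 FPKM in Alb-WT, so that replicates 1 to 3 were 1.18 times and replicate 4 was 0.508 times the Alb-WT mean. The log2 fold change was -0.07 (SE 0.251), and 0.23 (limma adjusted p = 0.001) without replicate 4. Ces2g, which is not on the list of 10, was at 11.6, 12.0, 11.5 and 12.1 FPKM in Alb-Cre and at 6.77, 6.97, 7.34 and 7.02 FPKM in Alb-WT. It rose 1.68-fold (log2 fold change 0.67, SE 0.0554, limma adjusted p = 0.000194; 0.66 without replicate 4), and as for Ces2c replicate 4 lay with its group. The ratio of Ces2c to Ces2g was 1.25 to 1.27 in all Alb-Cre libraries and 0.485 to 0.600 in Alb-WT.

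**Figure D2:**
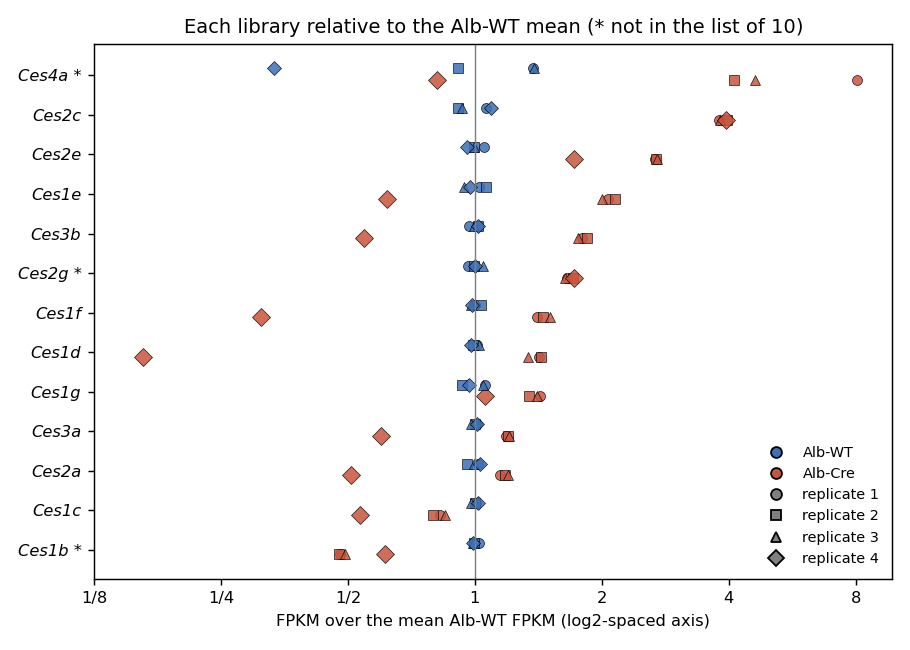
FPKM of each library over the mean Alb-WT FPKM of the same gene (x axis, log2-spaced, 1 marked by a line) for the 10 listed genes and 3 paralogs outside the list (asterisks), ordered by the mean of Alb-Cre replicates 1 to 3. Ces2c and Ces2g have all Alb-Cre libraries together, while for Ces1d replicate 4 (diamond) lies near 0.163 with the others near 1.39.

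In subfamily 3, Ces3a came next to Ces1c in abundance, and Ces3b, its close copy, was rarer. Ces3a was at 738, 748, 752 and 373 FPKM in Alb-Cre and at 629, 623, 611 and 630 FPKM in Alb-WT. Replicates 1 to 3 were 1.20 times and replicate 4 was 0.599 times the Alb-WT mean. With all libraries its log2 fold change was 0.01 (SE 0.214), and 0.26 (limma adjusted p = 0.000152) without replicate 4. Ces3b was at 135, 139, 133 and 41.3 FPKM in Alb-Cre and at 73.1, 77.1, 75.3 and 77.0 FPKM in Alb-WT. Its replicates 1 to 3 were 1.80 times the Alb-WT mean and replicate 4 was 1.83-fold below it. The log2 fold change was 0.41 (SE 0.352, limma adjusted p = 0.379), and 0.84 (adjusted p = 7.85e-08) without replicate 4. The ratio of Ces3a to Ces3b, which does not depend on library scaling, was 8.09 to 8.61 in Alb-WT, 5.37 to 5.66 in Alb-Cre replicates 1 to 3, but 9.04 in replicate 4.

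Ces4a, a further relative next to Ces3b in the gene order, was far rarer, at 1.87, 0.958, 1.07 and 0.189 FPKM in Alb-Cre and at 0.319, 0.211, 0.321 and 0.0776 FPKM in Alb-WT. These rest on 149, 78, 93 and 18 fragments and on 26, 20, 26 and 7 fragments. The difference missed the threshold (log2 fold change 0.65, SE 0.23, limma adjusted p = 0.0576), and passed it without replicate 4 (log2 fold change 0.88, adjusted p = 0.000214). Ces4a reached the filter of 0.5 FPKM only through the Alb-Cre libraries (means of 1.02 FPKM in Alb-Cre and 0.232 FPKM in Alb-WT). Nothing is therefore read from its p-values.

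Summed over members, the level of a subfamily is not moved by reads that its members exchange when their lengths are alike. By the shared windows this covers only Ces3a and Ces3b. The windows of Ces1c, Ces2a and Ces2c are shared with genes outside these sums, so the Ces1 and Ces2 sums are not protected in this way. The Ces1 sum was 1141, 1116, 1157 and 592 FPKM in Alb-Cre and 1200, 1187, 1168 and 1197 FPKM in Alb-WT, a ratio of means of 0.843, or 0.958 without replicate 4. The Ces2 sum was 198, 202, 203 and 110 FPKM against 132, 124, 128 and 131 FPKM, a ratio of 1.39, or 1.56 without replicate 4. The Ces3 sum was 873, 888, 885 and 414 FPKM against 702, 700.2, 686 and 707 FPKM, a ratio of 1.09, or 1.26 without replicate 4. In replicate 4 alone all 3 sums were below every Alb-WT library, at 0.498, 0.856 and 0.593 times the Alb-WT means of Ces1, Ces2 and Ces3.

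The makeup of each subfamily, as shares of its summed FPKM including Ces1b and Ces2g, also differed between libraries. Ces1c made up 74.7% to 75.9% of the Ces1 sum in Alb-WT, 65.4% to 67.4% in Alb-Cre replicates 1 to 3, but 79.6% in replicate 4. Ces1d made up 10.1% to 10.9%, 14.7% to 16.3% and 3.38% of it in the same order. Ces2a made up 72.1% to 73.7% of the Ces2 sum in Alb-WT, 54.1% to 55.0% in the first 3 Alb-Cre libraries and 41.0% in replicate 4. For Ces2a, unlike Ces1c and Ces1d, replicate 4 lay on the same side of the Alb-WT range as its group. Ces2c and Ces2e together with Ces2g filled the remainder, Ces2e at 18.2% to 19.9%, 32.8% to 33.4% and 36.7%.

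**Figure D3:**
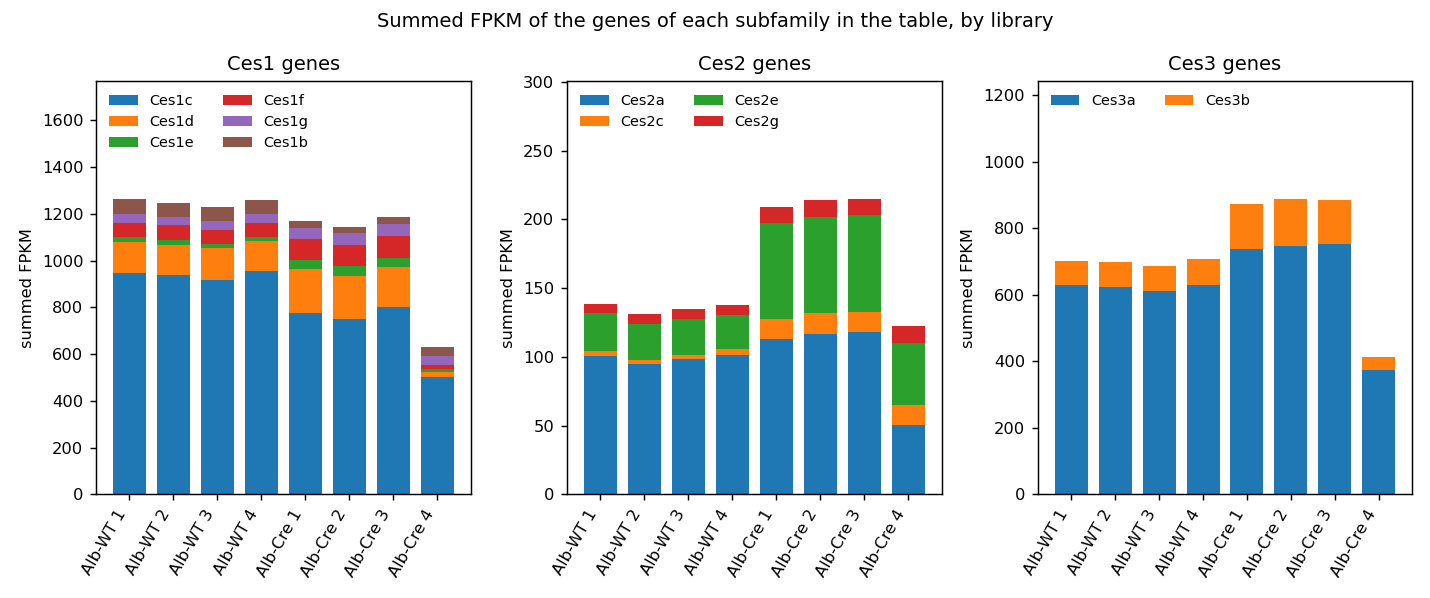
Summed FPKM (y axis from 0) of the genes of each subfamily in the table, stacked by gene (colours), for each of the 8 libraries (x axis); Ces1b and Ces2g, outside the list of 10, are included. Alb-Cre replicate 4 has the shortest bar in all 3 panels, and Ces2e takes a visibly larger part of the Ces2 bars in Alb-Cre than in Alb-WT libraries.

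By mean level in Alb-WT livers, the order was Ces1c, Ces3a, Ces1d, Ces2a, Ces3b, Ces1f, Ces1g, Ces2e, Ces1e and Ces2c, and no neighbours in it overlapped over the 4 libraries. This order is subject to the limits of shared reads and gene length given above. In Alb-Cre replicates 1 to 3, Ces1c and Ces3a overlapped and did not differ beyond their spread, Ces3b stood above Ces2a, and Ces2e stood above Ces1g. In replicate 4, Ces2a and Ces2e came directly after Ces1c and Ces3a, while Ces1d stood below Ces1g and Ces1e came last, after Ces2c.

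Along chromosome 8 the genes follow each other as Ces1b to Ces1g, then Ces2a to Ces2g, then Ces3a, Ces3b and Ces4a, with relatives not analysed here between some of them. In Alb-Cre replicates 1 to 3 the lower genes, Ces1b (0.482 times the Alb-WT mean) and Ces1c (0.825 times), stood side by side at one end, and all 11 genes after them were above the Alb-WT mean. In replicate 4 only Ces1g (1.05 times), Ces2c (3.94 times), Ces2e (1.72 times) and Ces2g (1.72 times) were above it.

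**Figure D4:**
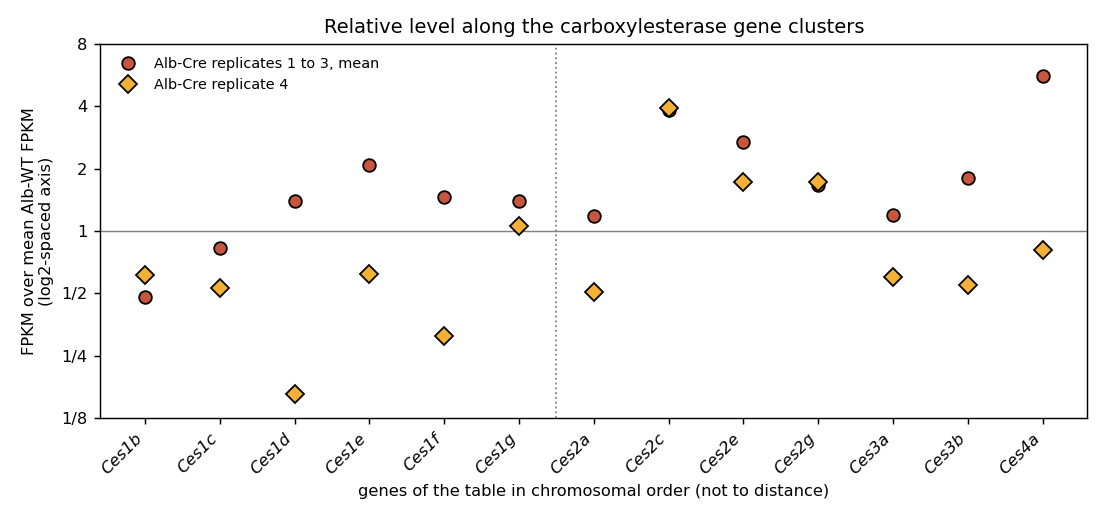
Level relative to the mean of Alb-WT (y axis, log2-spaced) for the 13 family genes in the table in their chromosomal order (x axis, not to distance; the dotted line ends the Ces1 cluster), as the mean of Alb-Cre replicates 1 to 3 (circles) and as Alb-Cre replicate 4 (diamonds). The circles lie below 1 for the neighbours Ces1b and Ces1c and above 1 for the other 11 genes.

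The genes whose profile over the 8 libraries was most like that of the leading member of each subfamily were found by the root mean square difference of centred log2 values among 9582 genes. For Ces1c these were Slc38a4, an amino acid transporter (0.045), Aplp2, a relative of the amyloid precursor (0.0456), and Cyp4f15, a cytochrome P450 (0.0508). For Ces2a they were Igfals, which carries insulin-like growth factors in blood (0.059), Cat, encoding catalase (0.065), and Cyp2d9, a cytochrome P450 (0.065). For Ces3a they were Oit3, which is also on the endothelial marker list used below (0.0352), Hspa8, a constitutive chaperone (0.0434), and Nqo2, a quinone reductase (0.0473). Cat shows the shape, at 838 FPKM as the Alb-WT mean, 998 FPKM as the mean of Alb-Cre replicates 1 to 3 and 431 FPKM in replicate 4.

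Other genes linked to the cleavage of esters, not all of them enzymes that cleave lipid esters, were taken as a list of 21 genes chosen by function. Of this list 20 were tested. Of these 3 rose, 6 fell and 11 were not called, with a median log2 fold change of 0.02 against -0.13 over all rows. Without Alb-Cre replicate 4, 7 rose and 8 fell, and without any single other library 1 to 3 rose and 4 to 5 fell. Mgll, monoglyceride lipase, rose from 9.74 ± 0.223 to 13.9 ± 1.25 FPKM (log2 fold change 0.47, limma adjusted p = 0.00334; 0.53 without replicate 4). Esd, esterase D, and Abhd5, the co-activator of adipose triglyceride lipase, rose, with log2 fold changes of 0.26 and 0.31 (0.28 and 0.35 without replicate 4). Both calls were less firm, that of Esd being lost in 4 of 16 alternatives, among them without Alb-WT replicate 1, and that of Abhd5 in 6 of 15, among them without Alb-Cre replicates 2 or 3 or Alb-WT replicates 1, 2 or 3. Pnpla2, adipose triglyceride lipase itself, fell from 25.3 ± 0.57 to 18.9 ± 1.68 FPKM (log2 fold change -0.41, adjusted p = 0.00536; -0.45 without replicate 4). Lipa, lysosomal acid lipase, and Lpl, lipoprotein lipase, fell by 0.39 and 1.08 on that scale (log2 fold changes of -0.32 and -1.36 without replicate 4), and the call of Lipa was lost with median-of-ratios scaling (adjusted p = 0.259). Lpl was at 2.27 to 2.90 FPKM in Alb-Cre replicates 1 to 3, but 6.82 FPKM in replicate 4.

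Of 12 genes of VLDL assembly and lipid droplets, 2 rose and 10 were not called (median log2 fold change 0.10). None fell by limma, with 1 lower at an unadjusted p under 0.05 and 1 called lower by limma-voom, and without Alb-Cre replicate 4, 5 rose and 1 fell. Without any single other library 1 to 2 rose. Plin2, which coats lipid droplets, rose from 75.8 ± 3.41 to 115 ± 12.4 FPKM (log2 fold change 0.59, limma adjusted p = 0.0027; 0.67 without replicate 4). Cidec, a droplet fusion protein, rose by 0.44 on the log2 scale from a low level of 0.604 FPKM (0.41 without replicate 4), but this call was lost in 5 of 15 alternatives, on leaving out Alb-Cre replicate 2 or 3 or Alb-WT replicate 1, 2 or 4 (adjusted p up to 0.0762).

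The xenobiotic receptors and related factors of drug and lipid metabolism were taken as 11 genes, of which 1 rose, 5 fell and 5 were not called (median log2 fold change -0.23). Without Alb-Cre replicate 4, 1 rose and 8 fell, and without any single other library none rose and 4 to 5 fell. With median-of-ratios scaling 1 rose and 1 fell, and that scaling moved the median of all rows from -0.13 to 0.02. Nr1i3, the receptor CAR, fell from 3.79 ± 0.356 to 1.88 ± 0.225 FPKM (log2 fold change -0.74, limma adjusted p = 0.000759; -0.79 without replicate 4). Nr1i2, the receptor PXR, passed the threshold only narrowly (22.2 ± 1.12 to 25.7 ± 1.64 FPKM, log2 fold change 0.20, adjusted p = 0.0499; 0.25 without replicate 4) and did so in 4 of 16 alternatives. Ppara, the fatty acid receptor, and Nfe2l2, the antioxidant regulator NRF2, fell by 0.39 and 0.35 on the log2 scale (log2 fold changes of -0.39 and -0.38 without replicate 4), calls that were lost with median-of-ratios scaling.

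Of 19 further known targets of CAR and PXR, 17 were tested, and 2 rose, 6 fell and 9 were not called (median log2 fold change -0.14). Without Alb-Cre replicate 4, 5 rose and 7 fell. Cyp2b10, the classical CAR target, fell from 12.6 ± 1.18 to 1.79 ± 0.462 FPKM (log2 fold change -2.30, limma adjusted p = 4.03e-05; -2.37 without replicate 4), with all Alb-Cre libraries at 1.13 to 2.18 FPKM. Gadd45b and the bile pigment exporter Abcc2 fell by 1.24 and 0.59 on the log2 scale (log2 fold changes of -1.36 and -0.63 without replicate 4). Gstm3, a glutathione transferase, rose from 30.01 ± 2.33 to 89.0 ± 33.8 FPKM (log2 fold change 1.47, adjusted p = 0.00218; 1.24 without replicate 4), and Alas1, which starts haem synthesis, rose by 0.43 (0.48 without replicate 4). In all 4 Alb-Cre libraries Gstm3 and Alas1 were above every Alb-WT library, as were 9.27% of all rows. Cyp2b10, Gadd45b and Abcc2 were below in all 4, as were 21.4% of all rows. These genes were named for the smallest p among those called, so nothing is read from this separation. The part of CAR or PXR in the carboxylesterase levels was not tested.

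Most marker lists of other liver cells held genes that fell, and how many did so rested in part on single libraries. Summed Kupffer cell and macrophage markers were 507 to 539 FPKM in Alb-WT, 140 to 151 FPKM in Alb-Cre replicates 1 to 3 and 445 FPKM in replicate 4. All 8 fell, also without replicate 4, and 6 fell without any single other library. Neutrophil markers were 263 to 325 FPKM, 7.03 to 7.39 FPKM and 86.4 FPKM in the same order, and the 5 tested fell with all libraries and without any single library. Monocyte markers were 407 to 435 FPKM, 83.4 to 94.1 FPKM and 406 FPKM, but Lyz2, a lysozyme gene, made up 90.1% to 97.2% of these sums. Without Lyz2 the sums were 37.5 to 40.3 FPKM, 2.33 to 3.71 FPKM and 18.1 FPKM, so that replicate 4 lay between the other Alb-Cre libraries and Alb-WT. Of 6 monocyte markers 5 fell, 6 without replicate 4, and 3 without any single other library, where the call of Lyz2 was among those lost.

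Lymphocyte markers were rare, and their calls depended on which libraries entered. T and NK cell markers were 8.65 to 11.5 FPKM in Alb-WT, 1.16 to 2.26 FPKM in Alb-Cre replicates 1 to 3 and 12.8 FPKM in replicate 4. Of 4 tested 1 fell with all libraries, 4 fell without replicate 4, and none was called without any single other library. B and plasma cell markers were 5.88 to 7.10 FPKM, 2.95 to 3.70 FPKM and 15.3 FPKM in the same order. With all libraries 0 of 3 tested were called by limma (0 at an unadjusted p under 0.05 and 0 by limma-voom), and without replicate 4 all 3 fell. In bulk tissue fewer cells of a type and less RNA per cell cannot be told apart.

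Among the structural cells, cholangiocyte markers were 79.0 to 92.2 FPKM in Alb-WT, 36.2 to 41.0 FPKM in Alb-Cre replicates 1 to 3 and 61.8 FPKM in replicate 4. Spp1 alone made up most of these sums, at 70.9 to 83.7 FPKM, 32.3 to 36.7 FPKM and 55.7 FPKM. The 4 cholangiocyte markers tested fell with all libraries and without replicate 4, and 2 to 4 fell without any single other library, the fewest without Alb-Cre replicate 1. Stellate cell markers were 62.1 to 67.4 FPKM, 38.6 to 40.4 FPKM and 47.8 FPKM, and 4 of 6 fell, 5 without replicate 4 and 2 without any single other library. Endothelial markers were 35.7 to 37.9 FPKM, 37.2 to 39.4 FPKM and 27.3 FPKM, and 2 of 6 fell, while without replicate 4, 3 fell and 2 rose. Of 6 adipocyte markers only Fabp4 was analysed, at 1.42 to 2.46 FPKM in all libraries. Of 6 intestine and kidney markers only Fabp2, a fatty acid binding protein that is abundant in intestine, was analysed, and it rose from 22.5 ± 1.78 to 54.0 ± 3.05 FPKM (log2 fold change 1.23, limma adjusted p = 4.82e-05; 1.25 without replicate 4). The part of these cell types in the carboxylesterase levels was not tested.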

How the data were processed

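Bulk liver RNA of 4 Alb-Cre and 4 Alb-WT libraries was analysed, grouped by sample title. The authors deposited FPKM per gene, with 1 column a library. HISAT2 2.0.5 is named in the submitters' processing notes, which also list builds of the mouse and human genomes without a role. What counted the reads, on which annotation and strand, was not given in the sources used here, and antisense or near-identical genes may share reads. The sample descriptions name a single-cell kit maker, which the extraction protocol per the labels does not match.

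The deposited FPKM were put on a log2(FPKM + 1) scale and fitted by limma 3.58.1 under R 4.3.3 (empirical Bayes with an intensity trend, genotype as the only term) over the 11077 of 13703 rows whose mean reached 0.5 FPKM, Benjamini-Hochberg adjusted over these rows. This scale understates the change of low genes. FPKM steps gave whole fragments for 13702 rows (tolerance 1e-06), which set the depth and a limma-voom alternative. The lowest deposited value was 0.00167 FPKM and no value was 0. Every pair of libraries differed by more than counting noise. Replicate numbers were taken as names only, since no label pairs the libraries. Deviations of same-numbered libraries from their group means correlated at -0.097 to 0.013. Replicate 4 dominates these deviations in the Alb-Cre group, so they could hardly show a pairing.

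Transcript windows and coding sequences came from GENCODE M21 and promoters from RefSeq (GRCm38.p6), both older than the listed mouse build, so their coordinates are those of GRCm38.p6. Python 3.11.15 with pandas 2.3.3, numpy 2.4.6, Biopython 1.88 and matplotlib 3.10.9 was used.

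The members and all gene lists were chosen with earlier results of these data known. Named were all members, the family genes outside the list, Bicd2, up to 3 called genes a direction of each function list, up to 2 of the most abundant markers a cell type in the tables, and the 3 genes most like the leading member of each subfamily. Alternatives were another pseudocount, filters, scalings, a replicate block, each library left out and limma-voom.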

Additional observations from a re-analysis of the deposited data

Results flagged for a closer look

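Among 4 libraries of a group, a library was taken as far from the others when its gap to the nearest, over the group's range, exceeded Dixon's 95% critical value. With independent values chance would flag about 1 in 20 groups, but these groups share the same libraries and include sums of the same genes. The number flagged is therefore not set against that rate, and the share of all rows flagged was not counted. Here 12 of 32 groups were flagged, 11 of them at Alb-Cre replicate 4. In the Alb-Cre group that library was far below the others for Ces1d (21.3 FPKM), Ces1e (11.9 FPKM), Ces1f (19.5 FPKM), Ces2a (50.1 FPKM), Ces2e (44.9 FPKM), Ces3a (373 FPKM) and Ces3b (41.3 FPKM). It was also far below them for the sums of Ces1 (592 FPKM), Ces2 (110 FPKM) and Ces3 (414 FPKM). For Ces1b it was far above them (37.7 FPKM). The remaining case was Alb-WT replicate 1 for Ces1b, which at 62.9 FPKM was the highest of a narrow group. For Ces2c no Alb-Cre library stood apart.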

How the results depend on the processing

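Calls of Ces2c and Ces2e kept direction and threshold in all 16 alternatives. The count of members called higher, 3, was 9 without Alb-Cre replicate 4 and was within 1.5 times of 3 in the other 15, with a range of 2 to 9 when single libraries were left out. The count called lower, 1, was 0 with no filter on low values, with median-of-ratios scaling and with the replicate block, and ranged from 0 to 1 when single libraries were left out. The call lost there is that of Ces1c (adjusted p = 0.0573, 0.4 and 0.0777 in the order given). Ces1g also lost its call with quantile normalization (adjusted p = 0.0565). Among members not called, direction turned for Ces1d without Alb-Cre replicate 4 (0.48, against a lowest value of -0.55 without another library), for Ces1f (-0.01 as reported) with median-of-ratios scaling (0.19) and when single libraries were left out (-0.21 to 0.53), for Ces2a with median-of-ratios scaling (0.13) and when single libraries were left out (-0.18 to 0.23), and for Ces3a on rescaling to a common FPKM sum (-0.08) and when single libraries were left out (-0.08 to 0.26). Ratios of summed FPKM moved by less than 1 SD (0.23, 0.353 and 0.335 for Ces1, Ces2 and Ces3) in all 12 settings each. These SDs are those of the Alb-Cre libraries over the Alb-WT mean and are widened by replicate 4. Leaving out a single library could hardly exceed them, so no stability is read from this. Without Alb-Cre replicate 4 the ratios went from 0.843 to 0.958, from 1.39 to 1.56 and from 1.09 to 1.26.

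Over all rows, 939 rose and 2582 fell (73.3% of calls lower). The counts were 1679 and 5112 without Alb-Cre replicate 4, 546 to 753 and 1205 to 1527 without any other library, 613 and 1631 with the replicate block, 623 and 3013 (82.9%) after rescaling, 1872 and 1516 (44.7%) with median-of-ratios scaling, 1523 and 1478 (49.3%) with quantile normalization, and 779 and 981 (55.7%) with a mean of at least 5 FPKM. The paired fit was run although no label says that the numbers pair the libraries. The limma-voom fit, chosen after seeing the data, called 923 and 2904 rows. It replaced the planned edgeR and DESeq2 fits, which were not run because the deposited unit is FPKM. Where a cause is not named, the cause was not tested. The fewest fragments of a member in a library were the 272 of Ces2c in Alb-WT replicate 3, and Ces4a rests on 7 to 149 fragments. The part of depth in the spread between libraries was not tested.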
